A study of Homo sapiens with 27 samples.

Results

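The comparison is between 2 lists of H2A.Z peaks, 1 from HL-60 cells given actinomycin D (ActD) at 0.8 µM and 1 from HL-60 cells given the vehicle DMSO. All peaks on chromosomes 1 to 22 were taken, which gave 17733 peaks for ActD and 1254 for DMSO, together 18987 of the 147645 peaks that the 10 ChIP lists of the series hold on these chromosomes. HL-60 is an established human promyelocytic leukaemia cell line, and ActD stops RNA synthesis by inserting itself into DNA. In both groups the chromatin was fixed with 1% formaldehyde for 10 min and sonicated, and 4 µg of antibody to H2A.Z was used, per the labels' protocols. How long the cells were treated is not given in the sources used here. Each group is 1 library of 1 cell line, so no test between the groups exists, and every difference below is one between 2 libraries and their peak calls. Intervals are exact 95% binomial intervals and cover counting error only.

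H2A.Z is a variant of histone H2A that chromatin remodellers of the SWR1 family (SRCAP and p400 in human cells) place into nucleosomes. It is best known from the nucleosomes that flank the starts of genes and from enhancers, and its acetylated form (acH2A.Z), made by the TIP60 complex, marks active promoters. HL-60 cells are arrested at the promyelocyte stage, where the genes of azurophil granules and of myeloid transcription factors are expressed. In the nascent RNA of the same treatments, 9 of 10 listed promyelocyte markers exceeded 1 CPM in DMSO and 8 of 10 in ActD (ELANE was at 0 in both), and the 12 markers of other cell types summed to 1.25 CPM in DMSO and to 0 in ActD.

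The promoters at which the lists held their highest peaks are shown first, because the comparison turns on them. Each is the RefSeq sequence (GRCh38.p14) from 250 bases before to 50 bases after a gene start, 5′ to 3′ on the gene's strand. Capitals mark the GC box (letters GGGCGG), the ETS site (letters CCGGAAG), the E box (letters CACGTG), the CCAAT box named by its letters and the TATA element spelled TATAAA, searched on both strands, with overlapping matches left in one run of capitals. RBM8A (chr1:145927435-145927734, minus strand), a core protein of the exon junction complex, HNRNPC (chr14:21269393-21269692, minus strand), a protein that packages nascent transcripts, and MPDU1 (chr17:7583397-7583696, plus strand), which serves the use of dolichol-linked mannose in glycosylation, had a peak in both lists.
RBM8A: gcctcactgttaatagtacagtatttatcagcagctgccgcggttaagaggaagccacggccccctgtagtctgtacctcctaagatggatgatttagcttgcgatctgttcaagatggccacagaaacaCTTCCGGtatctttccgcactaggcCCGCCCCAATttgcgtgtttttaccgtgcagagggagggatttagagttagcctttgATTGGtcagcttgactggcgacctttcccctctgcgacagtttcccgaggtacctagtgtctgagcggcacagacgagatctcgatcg
HNRNPC: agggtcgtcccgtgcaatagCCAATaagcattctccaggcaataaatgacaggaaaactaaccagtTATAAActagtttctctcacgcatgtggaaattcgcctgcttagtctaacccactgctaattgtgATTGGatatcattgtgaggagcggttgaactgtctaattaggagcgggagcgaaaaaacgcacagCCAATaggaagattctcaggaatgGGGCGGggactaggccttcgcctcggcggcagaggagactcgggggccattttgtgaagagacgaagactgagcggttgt
MPDU1: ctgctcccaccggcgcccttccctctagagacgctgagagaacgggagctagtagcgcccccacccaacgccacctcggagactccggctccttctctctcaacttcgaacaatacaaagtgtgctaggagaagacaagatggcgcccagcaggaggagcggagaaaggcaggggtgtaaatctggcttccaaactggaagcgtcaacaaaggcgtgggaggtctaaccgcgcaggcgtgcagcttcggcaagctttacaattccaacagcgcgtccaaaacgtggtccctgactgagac
ATF4 (chr22:39520309-39520608, plus strand), the transcription factor of the integrated stress response, had the highest peak of the DMSO list and none in the ActD list.
ATF4: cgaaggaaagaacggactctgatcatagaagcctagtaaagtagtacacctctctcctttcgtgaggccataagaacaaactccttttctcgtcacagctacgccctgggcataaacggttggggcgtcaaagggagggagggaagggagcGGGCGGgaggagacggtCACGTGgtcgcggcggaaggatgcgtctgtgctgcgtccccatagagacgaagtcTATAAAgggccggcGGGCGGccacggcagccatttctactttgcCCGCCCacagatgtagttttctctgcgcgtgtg
RBM26 (chr13:79406206-79406505, minus strand), an RNA-binding protein, and POLDIP3 (chr22:42614834-42615133, minus strand), which takes part in mRNA export and translation, led the protein-coding genes with a peak in the ActD list alone.
RBM26: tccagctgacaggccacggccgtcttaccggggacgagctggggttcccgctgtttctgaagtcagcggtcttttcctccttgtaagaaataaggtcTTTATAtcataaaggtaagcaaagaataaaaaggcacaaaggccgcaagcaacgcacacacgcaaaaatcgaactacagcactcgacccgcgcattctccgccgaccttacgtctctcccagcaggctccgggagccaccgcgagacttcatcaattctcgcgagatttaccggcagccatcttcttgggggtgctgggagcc
POLDIP3: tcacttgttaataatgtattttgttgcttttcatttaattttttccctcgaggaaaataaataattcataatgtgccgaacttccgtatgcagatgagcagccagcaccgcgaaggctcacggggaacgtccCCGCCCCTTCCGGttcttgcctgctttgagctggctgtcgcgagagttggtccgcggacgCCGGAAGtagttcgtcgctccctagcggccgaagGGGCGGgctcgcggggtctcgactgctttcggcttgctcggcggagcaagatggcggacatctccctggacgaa

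The values at these starts span the comparison. The peak at RBM8A had a Normalized Tag Count of 161.5 in DMSO and 36.3 in ActD, and the peak at HNRNPC 141.3 in DMSO and 8.85 in ActD. This count is the authors' value per peak and was taken to be tags per 10000000, which the headers do not state. At MPDU1 the counts lay closer, at 59.1 in DMSO and 43.2 in ActD, and this was the highest value of the whole ActD list. The peak at ATF4 stood at 168.8 in DMSO. RBM26 and POLDIP3 had ActD values of 31.7 and 31.4. Of these 6 starts, the ones with a peak in both lists were all lower in ActD.

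The ActD list held 14.1 times as many peaks as the DMSO list, and its peaks were lower and narrower. The median Normalized Tag Count was 6.57 in ActD (quartiles 5.96 and 7.8, highest 43.2) and 25.9 in DMSO (quartiles 20.1 and 37.3, highest 168.8). The ranges meet only in part: 233 DMSO peaks (18.6%) lay above the highest ActD peak, and 17430 ActD peaks lay below the lowest DMSO peak, at 17.1. Per 1000 bp of peak width the medians were 12.5 in ActD and 39.6 in DMSO. The median width was 500 bp in ActD and 637 bp in DMSO, and 75.8% of ActD peaks but 36.0% of DMSO peaks had 500 bp, the smallest width in either list. Peaks of 500 bp made up 41.8% of the H2A.Z list of cells given DRB, a kinase inhibitor. They made up 75.8% and 71.0% in the H2A.Z lists of cells given control siRNA (siNTC) and siRNA against MYC (siMyc). Together the ActD peaks covered 10.1 Mb and the DMSO peaks 0.922 Mb. The median fold over control was 12.2 in ActD and 13.9 in DMSO. In 39.5% of ActD and 67.1% of DMSO peaks the control stood at no more than 0.5 tags, so these medians rest partly on that low value. Among the ActD peaks of at least 17.1, where 1.65% had such a control, the median fold was 6.03.

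The lists were not called at the same depth. The ratio of the scaled to the normalized tags in the files gives, on the assumption above and counted in Mtags (1e6 tags), a control of 19.7 for ActD and 3.52 for DMSO, a factor of 5.62, and the tags of both immunoprecipitations had been scaled down to their control. The lowest DMSO peak, at 17.1 normalized tags, then rested on 6.01 scaled tags, and the same level in ActD on 33.8. Peaks below 17.1 were listed in ActD and not in DMSO. The median of the clonal fold change, HOMER's measure of repeated tags at one position, was 1.05 in ActD and 1.515 in DMSO. The part of depth and of repeated tags in the number of peaks was not tested, and treatment and depth cannot be told apart in 1 library a side.

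Held to a Normalized Tag Count of at least 17.1, the ActD list kept 303 peaks (1.71%) and the DMSO list all 1254, so that the order of the list lengths turned, with 4.14 times as many peaks in DMSO. The lowest ActD peak inside this limit was at 17.1 and the highest outside it at 17. The 303 ActD peaks had a median tag count of 20.2, against 25.9 in DMSO. They were wider than the DMSO peaks, with a median of 1235 bp, and per 1000 bp of width they stood at 16.3 against 39.6.

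**Figure D1:**
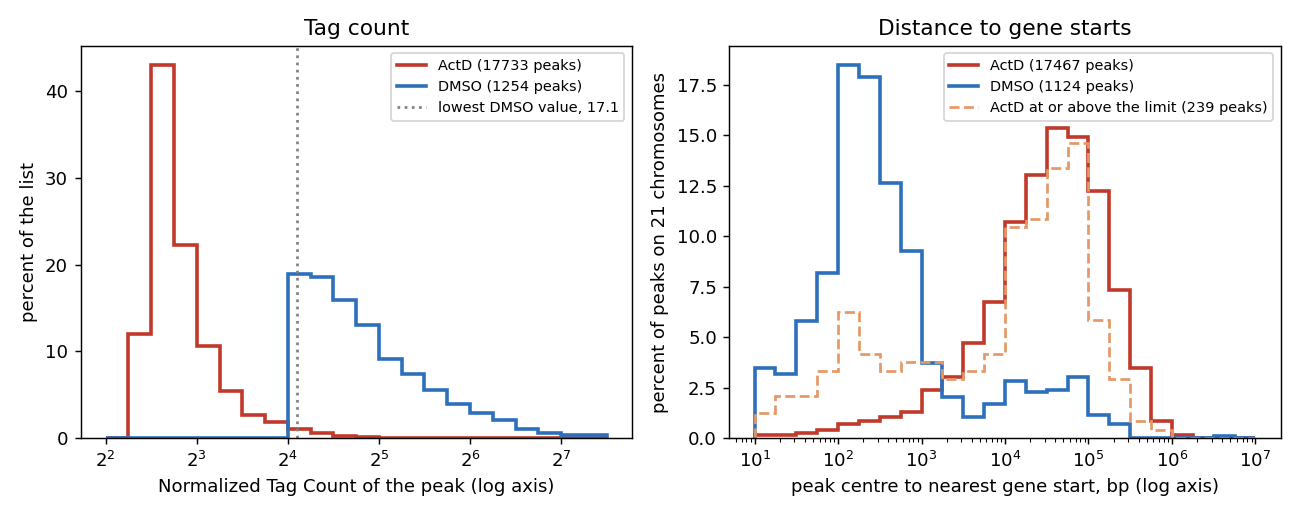
Left, Normalized Tag Count per peak on a log axis, as the percent of each list in a bin; right, distance from the peak centre to the nearest gene start on a log axis, for peaks on the 21 chromosomes with gene starts. The ActD list is centred near its median of 6.57 and mostly left of the lowest DMSO value of 17.1, and its peaks lie mostly beyond 10000 bp from a start while most DMSO peaks lie within 1000 bp.

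In position the lists differed most at gene starts. The centre of 887 of 1124 DMSO peaks (78.9%, interval 76.4 to 81.3) lay within 1000 bp of a gene start, against 857 of 17467 ActD peaks (4.91%, interval 4.59 to 5.24). These are the peaks of 21 chromosomes, since the table of starts used has none for chromosome 8, and 1.98% of the span of those chromosomes lies within 1000 bp of a start. The median distance to a start was 251 bp in DMSO and 37037 bp in ActD. Of the other H2A.Z lists, DRB had 52.3% of its peaks within 1000 bp of a start, siNTC 20.6% and siMyc 21.1%. The DMSO share was thus the highest of the H2A.Z lists and the ActD share the lowest. Median distances were 801 bp for DRB, 28940 bp for siNTC and 27488 bp for siMyc. Beyond 100 kb lay 1.96% of DMSO and 24.1% of ActD peaks. By at least 1 bp, 89.4% of DMSO peaks and 58.3% of ActD peaks overlapped the body of a protein-coding or lncRNA gene. Of the span of chromosomes 1 to 22, 54.4% is genic. A peak beside a start can touch a gene with its edge alone, so these shares are not directly comparable with that of the span. The limit on tag count narrowed this difference and did not close it, with 63 of 239 ActD peaks (26.4%, interval 20.9 to 32.4) within 1000 bp of a start.

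The share of ActD peaks at starts rose with tag count. It was 2.84% below a tag count of 6 (4660 peaks), 3.70% from 6 to 8, 7.77% from 8 to 12, 14.95% from 12 to 17.1, 21.8% from 17.1 to 25 and 43.1% at 25 or more (58 peaks, interval 29.3 to 57.8). In the DMSO list the share was 75.3% from 17.1 to 25, 81.0% from 25 to 50 and 84.2% at 50 or more. At the same level of 17.1 to 25, the DMSO share was above the ActD share by more than both intervals (71.3 to 79.0 and 16.1 to 28.4).

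**Figure D2:**
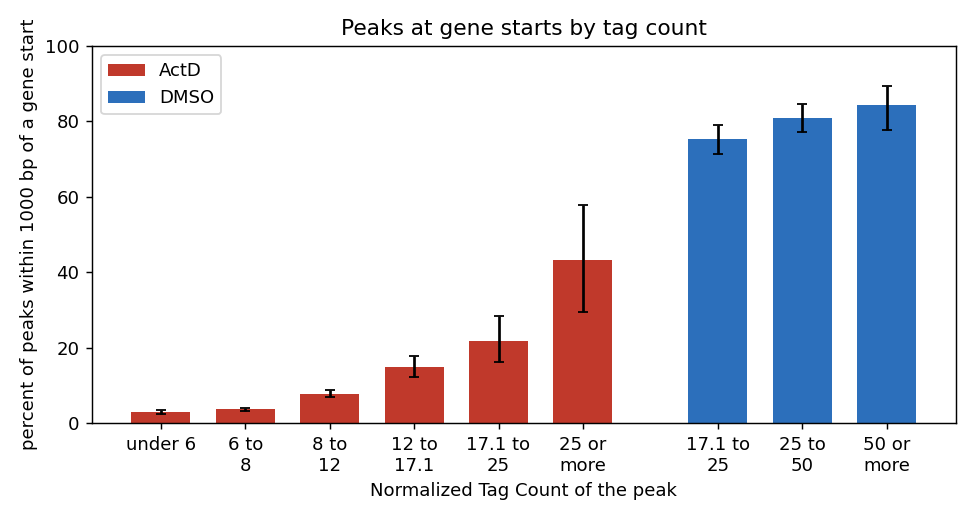
Percent of peaks whose centre lies within 1000 bp of a gene start, by Normalized Tag Count of the peak, with exact 95% binomial intervals as error bars (counting error only). The ActD share climbs from 2.84% to 43.1% and stays below the lowest DMSO share, 75.3%.

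Few peaks were shared. By at least 1 bp, 220 ActD peaks (1.24%, interval 1.08 to 1.41) overlapped a DMSO peak, and 218 DMSO peaks (17.4%, interval 15.3 to 19.6) overlapped an ActD peak. Of the 303 ActD peaks inside the limit, 49 (16.2%) overlapped a DMSO peak, which was 3.91% of the DMSO list. Of the shared ActD peaks 75.1% lay within 1000 bp of a start, against 4.07% of the ActD peaks without a DMSO partner. The shared peaks were picked by overlap with DMSO peaks, of which 78.9% lay at starts. A high share among them thus follows from the choice. The share of DMSO peaks at starts was 76.4% among those with an ActD partner and 79.5% among those without.

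The overlapping peaks formed 220 pairs, and within them the ActD tag count was lower as a rule. The ActD member ranged from 4.99 to 43.2 with a median of 11.45, and the DMSO member from 17.1 to 168.3 with a median of 29.8. The median log2 ratio of ActD over DMSO was -1.55 (quartiles -2.05 and -1.005), with 212 pairs below 0. The ActD value was at least 2-fold lower in 166 pairs (75.5%) and at least 2-fold higher in 0. An ActD peak could enter a pair from 4.99 upward, the DMSO peak only from 17.1, so the choice of pairs by itself favours ratios below 0. Among the 49 pairs in which both members stood at 17.1 or more, the median was -0.85 and 21 were at least 2-fold lower.

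Among the pairs, the lowest ratio was at HNRNPC, at -4.00. WDR33, a subunit of the polyadenylation machinery, had 80.1 in DMSO and 5.91 in ActD, in peaks that met over 1 bp. A peak inside RBM39, a splicing factor gene, had 168.3 in DMSO and 16 in ActD. PPP2R5C, a regulatory subunit of protein phosphatase 2A, had 65.2 and 6.2, and PCBP2, a poly(rC)-binding protein, 57.8 and 6.37. These 5 pairs were lower by more than 3 on the log2 scale. At the other end, EEF1A1, the elongation factor that brings aminoacyl-tRNA to the ribosome, had 27.8 in ActD and 20.4 in DMSO, with an ActD peak of 1714 bp and a DMSO peak of 500 bp. TASOR, of the HUSH silencing complex, had 23.4 in ActD and 17.3 in DMSO, PCNP had 22 and 17.2, and RBM33 had 23.9 and 20.6. The highest ratio, 0.47, belonged to a pair near LINC01312 on chromosome 6, at 26.4 and 19.1. In each of these 5 pairs the ActD peak was the wider one. Per 1000 bp of width, 219 of the 220 pairs were lower in ActD, with a median log2 ratio of -1.26.

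**Figure D3:**
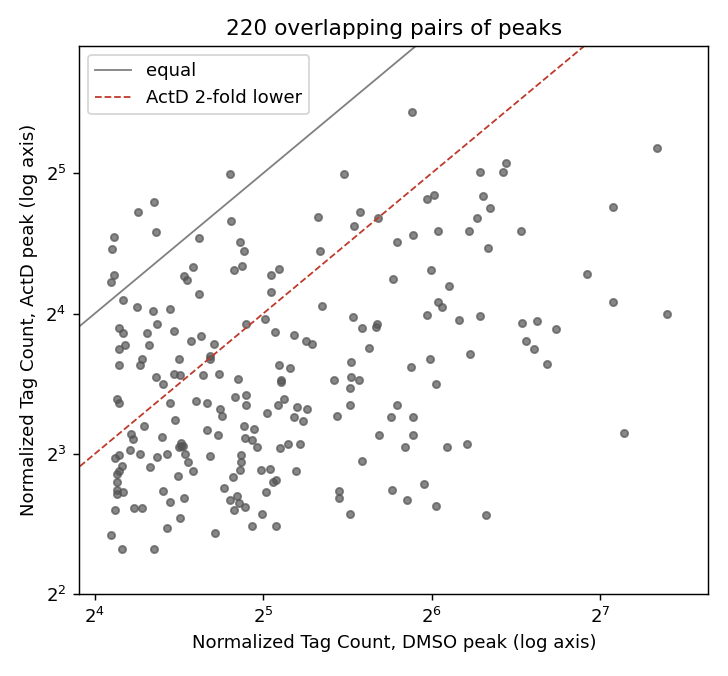
Normalized Tag Count of the ActD peak against that of the DMSO peak in the 220 overlapping pairs, both on log axes, with lines for equal values and for a 2-fold lower ActD value. Most points (166) lie on or below the 2-fold line, and 8 lie above the line of equal values.

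By chromosome, the ActD peaks were concentrated and the DMSO peaks were not to the same degree. Chromosome 18 held 3775 ActD peaks (21.3%) and chromosome 5 held 3707 (20.9%), followed by chromosome 13 with 1926 and chromosome 6 with 1626. These 4 chromosomes held 62.2% of the ActD and 19.5% of the DMSO peaks, with 19.0% of the span. On chromosome 5 the ActD peaks lay mostly at one end: the first 50 Mb held 3432 (68.6 per Mb) and the rest 275 (2.09 per Mb), while DMSO had 41 and 44. On chromosome 6 the stretch from 130 to 140 Mb held 852 ActD peaks (85.2 per Mb) and 13 DMSO peaks, around EYA4, SGK1, MYB, MAP7 and TNFAIP3. Other dense stretches were chromosome 1 from 140 to 160 Mb (689 ActD and 51 DMSO peaks) and chromosome 12 from 40 to 50 Mb (471 and 9). Median ActD tag counts on the 4 chromosomes were ordinary, from 6.38 on chromosome 13 to 6.98 on chromosome 6. On chromosome 18 the median gap between neighbouring ActD peaks was 12.8 kb, against 762 kb between DMSO peaks there.

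Above the limit the spread over chromosomes changed. Of the 303 ActD peaks, 64 lay on chromosome 8, 64 on chromosome 6, 59 on chromosome 5, 24 on chromosome 18 and 5 on chromosome 13. The stretch of chromosome 8 from 120 to 130 Mb held 63 of them and also 109 DMSO peaks (8.69% of the DMSO list), the most of any 10 Mb stretch of that list. There the DMSO list had 10.9 peaks per Mb, against 0.82 in the first 50 Mb of chromosome 5 and 0.498 on chromosome 18.

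The input DNA of the same treatments moved with the ActD peaks, though less so in some dense stretches. Over 281 stretches of 10 Mb with at least 10 protein-coding genes, Spearman's rho between input DNA per gene length and the number of peaks was 0.71 for ActD and 0.37 for DMSO, and 0.32 for the 303 ActD peaks inside the limit. For the acH2A.Z lists, scaled to controls of the same size as the H2A.Z lists, it was 0.20 for ActD and 0.0065 for DMSO. Each point shares its genes and their base composition between input and peaks, so these values only describe the lists. Relative to the median chromosome, chromosome 18 had 1.95 times the input DNA in ActD and 2.06 times in DMSO, and relative to the median stretch the first 50 Mb of chromosome 5 had 1.90 and 2.05 times. The 24 stretches with at least 1.5 times the median input made up 8.54% of these stretches and held 42.7% of all ActD peaks, 26.7% of the ActD peaks inside the limit and 11.96% of the DMSO peaks. The relative input was alike in both treatments (rho 0.87 over the stretches). The part of the amount of DNA in the number of ActD peaks was not tested. Without chromosomes 5, 6, 13 and 18, the ActD list held 6699 peaks and the DMSO list 1009, and 9.17% of ActD and 80.8% of DMSO peaks lay within 1000 bp of a start.

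**Figure D4:**
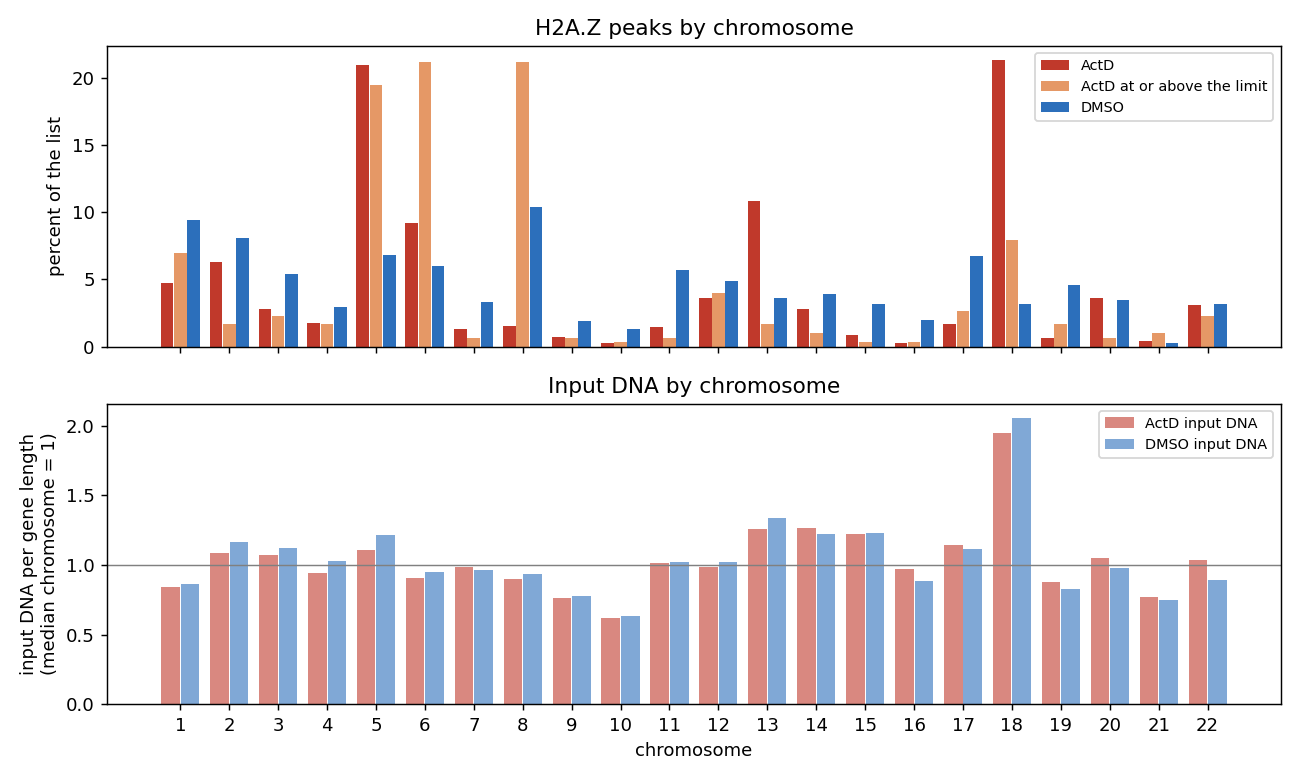
Top, percent of each list on each chromosome for all ActD peaks, the ActD peaks at or above 17.1 and the DMSO peaks; bottom, input DNA counts per length of protein-coding genes, with the median chromosome set to 1, for both treatments. Chromosomes 5 and 18 lead the ActD list with 20.9% and 21.3%, chromosome 8 leads the DMSO list with 10.4%, and input DNA is highest on chromosome 18.

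Long genes carried many of the ActD peaks. CDH18, a cadherin gene of 1104 kb on chromosome 5, held 96 ActD peaks and no DMSO peak, and CDH12, another cadherin gene there, held 72 and 1. CTNND2, which codes for delta-catenin, held 81 and none. DLGAP1 on chromosome 18, a scaffold of synapses, held 69 and 1, and EYA4 on chromosome 6, a transcriptional coactivator, held 65 and 3. NELL2 on chromosome 12 held 61 ActD peaks. Per Mb of gene, CDH18 and CTNND2 had 86.9 each and CDH12 65.3, beside 68.6 over the first 50 Mb of chromosome 5. DLGAP1 had 71.9, beside 47.0 on chromosome 18. EYA4 had 223, beside 85.2 from 130 to 140 Mb of chromosome 6, and NELL2 147, beside 47.1 from 40 to 50 Mb of chromosome 12. EYA4 and NELL2 thus stood further above their surroundings than the other named genes. The part of gene length and of the density of the stretch in the counts was not tested. These 6 genes had 0 counts in the nascent RNA of both treatments, which allows up to 0.208 CPM in DMSO and 0.238 CPM in ActD (3 counts). Other genes of high count were transcribed, such as MAP3K5, a kinase of the stress response, with 46 ActD peaks and 56.1 CPM in DMSO, and MAP7, a microtubule-associated protein, with 41 and 60.4 CPM. The genes with the most ActD peaks thus included both silent and transcribed ones.

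Most ActD peaks were not in any other ChIP list of the series, while nearly all DMSO peaks were. Of the ActD peaks 2717 (15.3%) overlapped a peak of any of the other 9 lists, against 1175 of the DMSO peaks (93.7%) and 157 of the 303 ActD peaks inside the limit (51.8%). The H2A.Z list of cells given DRB at 100 µM, a kinase inhibitor that holds back elongation, overlapped 2.82% of the ActD and 50.9% of the DMSO peaks. The siNTC H2A.Z list overlapped only 1.53% and 8.37%, and the siMyc H2A.Z list 2.20% and 15.9%. Each acH2A.Z list overlapped more DMSO peaks than any other H2A.Z list did, and each also covers more Mb. The acH2A.Z list of DMSO overlapped 7.18% of the ActD and 89.4% of the DMSO peaks, and that of ActD 11.1% and 87.6%. For the DMSO peaks the intervals of these shares overlapped, from 87.6 to 91.0 and from 85.7 to 89.4. Where ActD peaks met acH2A.Z, they met mostly high and wide peaks. The DMSO acH2A.Z peaks under them had a median tag count of 686, against 161.5 in that list as a whole, and a median width of 3095 bp against 1766 bp. The ActD acH2A.Z peaks under them had a median of 267.2 and a lower quartile of 24.6, against a list median of 24.5. A wider peak is more easily met and gathers more tags. Under the DMSO peaks the median of the DMSO acH2A.Z peaks was 1190.7. By chromosome, the share of ActD peaks found in other lists was lowest on chromosome 5, at 7.66% (6.41% in its first 50 Mb), followed by chromosome 21 at 10% of 80 peaks and chromosome 18 at 10.5%.

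Counted by gene, the lists were closer in size. A peak of the ActD list overlapped the 1000 bp on either side of a start in 878 of 15101 protein-coding genes (5.81%), and one of the DMSO list in 1044 (6.91%). Both lists had a peak at 221 genes (1.46%), ActD alone at 657 and DMSO alone at 823. Held to the limit, ActD peaks lay at 77 genes (0.51%). The genes with a peak in ActD alone had a median tag count of 7.74, and those in DMSO alone 26.3. All 221 genes in both lists also had an acH2A.Z peak in DMSO cells, as did all 823 genes of the DMSO list alone, against 535 of the 657 genes of ActD alone (81.4%) and 49.5% of the genes in neither.

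Promoter sequences were set side by side by class. Over the starts of all gene types, median counts of CpG in the 300 bases were 24 for starts with a peak in both lists, 25 for DMSO alone, 21 for ActD alone and 12 for starts in neither. Over protein-coding starts they were 24, 25, 23 and 20, so that the classes lay much closer together. The ETS site (CCGGAAG, as in the RBM8A and POLDIP3 promoters above) was found at 24.3% of starts in both lists, 27.1% in DMSO alone and 14.01% in ActD alone, with 10.3% of all 33725 starts. Over protein-coding starts its shares were 26.9%, 27.9% and 15.4%, against 12.9% of all 21156. For the GC box the shares were 62.5%, 66.3% and 54.8% against 45.0% of all starts, and over protein-coding starts 61.2%, 66.7% and 63.1% against 56.6%. Over all gene types, the CCAAT box stood at 37.8%, 39.7% and 35.9% against 34.4%. TATA boxes were at 8.71%, 5.37% and 10.3%, against 11.6%. E boxes (CACGTG) were at 7.21%, 8.42% and 8.65%, against 7.18%. The cAMP response element (TGACGTCA) was at 4.204%, 4.38% and 2.68%, against 1.87%. Starts of one gene lie close together and can share sequence, so these shares describe the starts and are not independent counts.

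Ribosomal protein genes, whose products build the cytosolic ribosome, had the highest share of members with a peak among the 15 gene lists examined. Of 59 with a start measured, 36 (61.0%) had a DMSO peak and 23 (39.0%) an ActD peak, beside the 6.91% and 5.81% of all protein-coding genes, and 16 had both. The DMSO tag counts ran from 19.2 to 85.8 with a median of 46.1, and the ActD tag counts from 5.35 to 32.2 with a median of 14.5. At all 16 shared members the ActD value was lower, in 13 of them at least 2-fold (81.3%), beside 172 of the 221 protein-coding genes with a peak in both lists (77.8%). RPL35A had 85.8 in DMSO and 32.2 in ActD, in a peak that also covers the start of its neighbour DRC9. RPL17 had 79.2 and 28.6, RPS27 78.2 and 15.8, RPS29 34.7 and 5.35, and RPS7 19.8 and 14.5. RPL32, RPL15 and RPL3 had DMSO peaks of 83.7, 77.1 and 69.5 and none in ActD. All 59 also had a DMSO acH2A.Z peak, which was not particular to this list. So had all 44 S-phase, all 34 G2 and mitosis and all 22 housekeeping genes measured, against 7 of 29 HOX and other developmental regulators. Of the protein-coding genes with an H2A.Z peak in neither list, 49.5% had one.

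Other growth genes followed with smaller shares. Of 22 housekeeping genes 11 had a DMSO and 3 an ActD peak. EEF2, the translocation factor of the ribosome, had 78 in DMSO and 32.2 in ActD, PSMB4, of the proteasome, 70 in DMSO alone, and GAPDH, of glycolysis, 35.5 in DMSO alone. Of 31 MYC targets in ribosome biogenesis and growth 9 had a DMSO and 5 an ActD peak. NPM1, the nucleolar chaperone, had 45.6 in DMSO alone, POLR1A, the largest subunit of RNA polymerase I, 57.4 in DMSO and 8.27 in ActD, and EIF4E, the cap-binding protein, 17.7 in ActD alone. Of 14 snoRNA host genes and nuclear long non-coding RNAs 6 had a DMSO and 3 an ActD peak, led by MALAT1, an abundant nuclear RNA, with 94.5 in DMSO and 14 in ActD. In each of these lists more members had a DMSO peak than an ActD peak. The DMSO shares were 50%, 29.0% and 42.9% in the order given, beside 6.91% of all protein-coding genes. The ActD shares were 13.6%, 16.1% and 21.4%, beside 5.81%. The last list holds non-coding genes, for which protein-coding genes are not the matching background. Of 11145 genes of other types, 0.48% had a peak in both lists, 1.35% in DMSO alone and 2.75% in ActD alone.

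Replication-dependent histone genes showed the opposite order. Of 38 with a start measured, 11 (28.9%) had an ActD peak there and 2 (5.26%) a DMSO peak, and none had both. The shares of all protein-coding genes were 5.81% and 6.91%. The 11 rested on 9 distinct peaks, since neighbouring histone genes share their start regions. HIST1H2AC had an ActD value of 10.9 and HIST1H4E of 10.8, on chromosome 6. HIST2H2AC and HIST2H2BE shared 1 ActD peak of 9.53 on chromosome 1, in the stretch from 140 to 160 Mb where the ActD input DNA was 1.66 times the median. HIST1H2BK and HIST1H4H had DMSO peaks of 26.1 and 24.1. None of the 11 ActD values reached the limit of 17.1, and the DMSO list held no peak that low. Counted at either end of a gene, 12 of 43 (27.9%) had an ActD and 4 (9.30%) a DMSO peak, and 1 had both. There the shares of all protein-coding genes were 6.32% and 6.19%. HIST2H2AC then had a DMSO peak of 20.1 beside its ActD peak.

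Immediate early genes, which respond quickly to stimuli, had an ActD peak at 4 of 25 (16%, beside 5.81% of all protein-coding genes) and a DMSO peak at none (6.91% of all). Counted at either end of a gene, 6 of 33 had an ActD peak and 1 had both, where 6.32% of all protein-coding genes had an ActD and 6.19% a DMSO peak. BTG1, which restrains cell division, had 22.9, SGK1, a serum-induced kinase, 10, FOSL2, a partner of JUN, 9.66, and JUNB 5.84. SGK1 also held 28 ActD peaks in its body, inside the dense stretch of chromosome 6. FOS and JUN had a peak in neither list. In the nascent RNA of 1 library each, JUNB went from 25.2 CPM in DMSO to 207.9 in ActD, SGK1 from 2.01 to 47.4 and JUN from 31.7 to 318.3, while BTG1 went from 5.89 to 1.35 and FOSL2 from 31.8 to 11.3. CPM is a share of each library's own total, so a higher CPM in ActD does not show more RNA per cell. The genes with an ActD peak did not share a direction in nascent RNA.

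Among genes of the myeloid lineage, 2 of 20 transcription factors had an ActD peak (10%, beside 5.81% of all protein-coding genes), CEBPE, needed for late granulocyte differentiation, at 8.56 and GFI1B, a repressor of the erythroid and megakaryocytic lineages, at 12, and none had a DMSO peak (6.91% of all). Counted at either end of a gene, 5 of 25 had an ActD peak and 1 a DMSO peak, where the shares of all protein-coding genes were 6.32% and 6.19%. CEBPA, which drives granulocyte commitment, had a peak in neither, and its nascent RNA went from 48.0 CPM in DMSO to 0.794 in ActD. None of the 8 granule genes with a start measured had a peak in either list, nor had the 29 HOX and other developmental regulators or the 7 lymphoid, erythroid and epithelial markers. SPI1, a master regulator of myeloid cells, had an ActD peak of 6.2 at one end of its gene and no DMSO peak there, and MPO had none at either end.

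The cell cycle, chromatin and cell death lists are read against the 6.91% of all protein-coding genes in DMSO and 5.81% in ActD. Of 44 S-phase genes 4 had a DMSO (9.09%) and 2 an ActD peak (4.55%), with ORC6, of the origin recognition complex, at 30.1 in DMSO and MCM7, of the replicative helicase, at 5.71 in ActD. Of 34 genes of G2 and mitosis 5 had a DMSO (14.7%) and 2 an ActD peak (5.88%), and NUSAP1, a spindle protein, had 39.1 in DMSO and 13.8 in ActD. Among 21 genes of H2A.Z and its SRCAP and TIP60 complexes 3 had a DMSO (14.3%) and 2 an ActD peak (9.52%): H2AFZ, which codes for H2A.Z itself, had 18.8 in DMSO alone, EPC1, a TIP60 subunit, 32.6 in DMSO alone and its paralogue EPC2 12.1 in ActD alone. H2AFV, the second H2A.Z gene, and KAT5, which codes for TIP60, had a peak in neither. Of 16 p53 targets 1 had a DMSO peak (6.25%), PMAIP1 at 19.9, and 2 an ActD peak (12.5%), SESN1 at 7.26 and AEN at 6.73. BCL2 and BCL2L1, both inhibitors of apoptosis, had DMSO peaks of 21.6 and 30.2 and no ActD peak at their starts, and 4 of the 17 members of their list had a DMSO (23.5%) and 2 an ActD peak (11.8%), both above the shares of all genes. Counted at either end of a gene, the order turned in the S-phase list, with 4 of 54 in DMSO and 5 in ActD. It also turned in the p53 list, with 1 of 21 in DMSO and 0 in ActD. In the other lists of this paragraph DMSO stayed ahead.

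**Figure D5:**
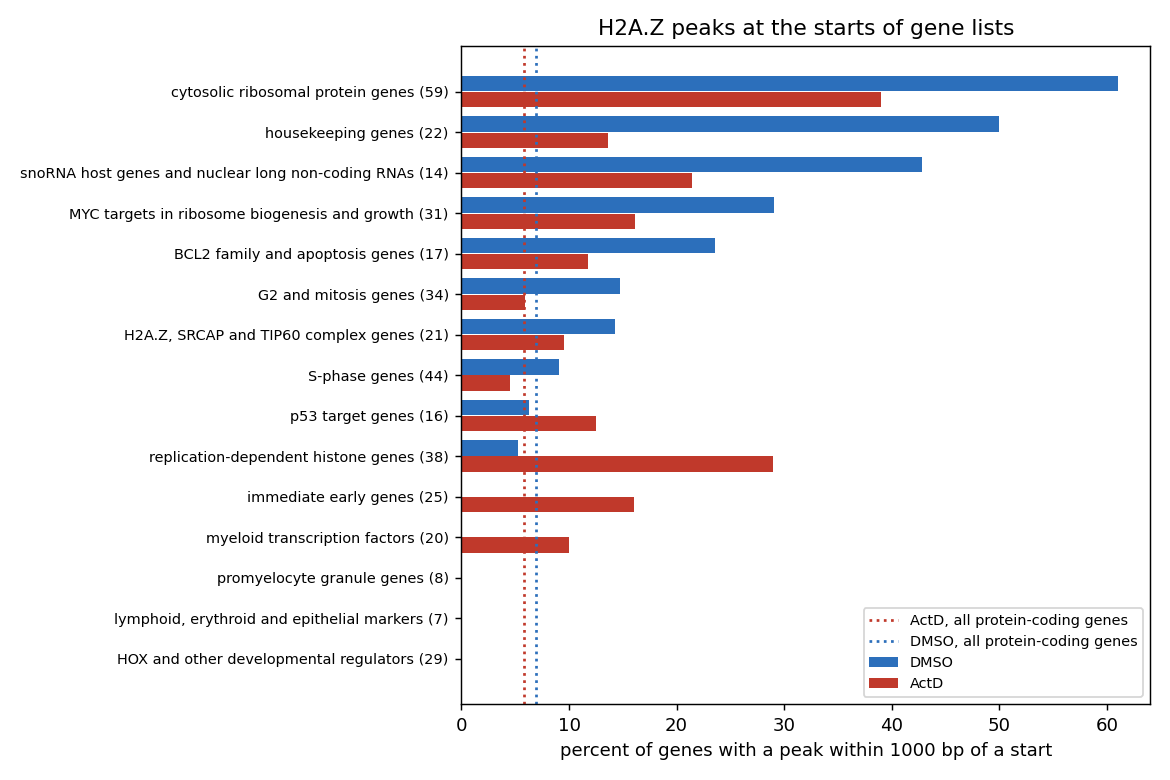
Percent of the genes of each list with a peak within 1000 bp of a start, in DMSO and in ActD, with the number of genes measured in brackets and dotted lines for all protein-coding genes (6.91% in DMSO and 5.81% in ActD). Ribosomal protein genes reach 61.0% and 39.0%, and the histone genes are the list with a DMSO share of 5.26% beside an ActD share of 28.9%.

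Outside these lists, RBM8A and HNRNPC led the starts with a peak in both lists by DMSO value and MPDU1 by ActD value, ATF4 those of DMSO alone, and the non-coding genes LINC01312 (34.8) and EYA4-AS2 (33.2) those of ActD alone, ahead of RBM26 and POLDIP3. BRD2, a bromodomain protein, had 134.8 in DMSO and 27.1 in ActD, HEXIM2, an inhibitor of the elongation kinase P-TEFb, 121.1 and 19.5, and NR3C1, the glucocorticoid receptor, 87 and 33.7. CSNK1A1, a casein kinase, had 124.2 in DMSO alone, SF3B4, of the U2 splicing complex, 114.4, and the bidirectional start of BICRAL and TBCC 116.5. In ActD alone, TNFAIP3, an inhibitor of NF-kappa-B signalling, had 25.4, and FIZ1, a zinc finger protein, 27. Away from gene starts, the second highest ActD peak (38.3, 2920 bp wide, at chr6:134592427-134595347) lay 53882 bp from the nearest start and overlapped no H2A.Z peak of DMSO or DRB and no acH2A.Z peak of DMSO or ActD. Among the 5 highest ActD peaks, those at MPDU1 and RBM8A and one in CCDC26 overlapped acH2A.Z in both treatments, while one in TARID overlapped it in neither. The 5 highest DMSO peaks all overlapped acH2A.Z in both treatments, as did most of that list (89.4% for the DMSO and 87.6% for the ActD acH2A.Z peaks).

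In nascent RNA the classes of genes differed little beside their spread. Of 8124 protein-coding genes with a mean of at least 1 CPM, 4350 (53.5%) were at least 2-fold lower in ActD and 1030 (12.7%) at least 2-fold higher, and the median log2 ratio was -1.17. It was -0.83 for the 211 genes with a peak in both lists (quartiles -1.91 and 0.18), -0.998 for the 784 with a DMSO peak alone (-2.28 and 0.01), -1.14 for the 514 with an ActD peak alone (-2.25 and -0.16) and -1.22 for the 6615 with neither (-2.38 and 0.12). The ranges between the quartiles of the 4 classes overlapped almost wholly. Scaling without mitochondrially encoded genes, which took 45.9% of counts in DMSO and 56.9% in ActD, moved the median of all genes to -1.002. Relative to that shift the order of the classes was the same. Without the filter on low values this order changed. The medians were then -0.71 for ActD alone, -0.79 for both, -0.95 for DMSO alone and 0 for neither. The ribosomal protein genes had a median of 0.69, with 10 of 59 at least 2-fold higher and 1 lower. All these ratios compare shares of each library's total and do not give amounts of RNA per cell.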

How the data were processed

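HL-60 cells were profiled in 27 libraries with 1 library a group, as the titles give them. Per the submitters' processing notes the build was GRCh38, and STAR 2.5.2b, HOMER, cutadapt and Trim Galore were among the tools. The peak lists are HOMER output per the file headers, called by the authors per library against a control that the headers do not name. The deposited Normalized Tag Count is a signal value whose scale is not stated, and tags per 10000000 were assumed. The deposited fold over control is a ratio of at least 4, the deposited p-value of each peak is at most 0.0001, and the deposited find-peaks score was not used. The deposited gene tables hold expected counts, used unrounded for input DNA (455948 in DMSO and 469547 in ActD) and for nascent RNA (14426368 and 12600067). Nascent counts became CPM of a library's total, and log2 ratios were taken after adding 1 CPM, for genes with a mean of at least 1 CPM.

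Positions were compared with Python 3.11.15, numpy 2.4.6, pandas 2.3.3 and scipy 1.17.1, whose overlap and distance functions were tested on simulated intervals. Overlap meant at least 1 bp, and genes were counted where a peak overlapped the 1000 bp on either side of a start. Starts (33725 for 26246 genes on 21 chromosomes, 15101 of 19126 protein-coding genes) and promoter sequences came from RefSeq (GRCh38.p14), matched by symbol or synonym. The peak limit is the lowest Normalized Tag Count of the DMSO list. Promoter letters and gene lists were described by counts, without tests, since there was 1 library a group. Named items were the 5 highest peaks of each list, the 5 pairs of highest and lowest ratio, the highest starts of each class, members of the gene lists and 11 fixed genes. The members and lists were chosen with earlier results of these data known. Control IgG libraries were not analysed here.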

Additional observations from a re-analysis of the deposited data

How the results depend on the processing

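No paired analysis was possible because each group held 1 library, and no library could be left out. Of 75 values under an alternative setting, 25 stayed close to the reported ones. The number of peaks turned in order when both lists were held to the lowest DMSO tag count, with 303 peaks in ActD and 1254 in DMSO. It stood at 11124 in ActD where fold over control reached 8 and at 6699 without chromosomes 5, 6, 13 and 18, a setting chosen after seeing the data. The share of overlapping peaks was 0.682% of ActD and 9.65% of DMSO peaks at a reciprocal overlap of 0.5, 1.82% and 24.8% within 1000 bp, 0.647% and 6.54% at a fold of at least 8, 16.2% and 3.91% at the limit, 9.01% and 8.93% for lists of equal number, and 2.66% of ActD peaks without the 4 chromosomes. Median widths turned in order to 1235 bp in ActD and 637 bp in DMSO at the limit, and to 919 bp and 637 bp for lists of equal number. The share of ActD peaks at starts was 26.4% at the limit, 5.91% from the nearest edge (DMSO 81.9%), 3.85% for protein-coding genes (DMSO 74.9%), 3.95% at a fold of at least 8, 17.01% for lists of equal number, 7.84% at either gene end on all 22 chromosomes (DMSO 75.2%, added after seeing the data) and 9.17% without the 4 chromosomes. It remained below the DMSO share in each. The median tag count was 20.2 in ActD at the limit and 6.49 without the 4 chromosomes, and per 1000 bp 12.5 in ActD and 39.6 in DMSO. The ratio in pairs had a median of -1.26 per 1000 bp and -0.85 at the limit. Protein-coding genes with an ActD peak numbered 551 in a window of 250 bp, 1273 in one of 2500 bp (DMSO 1083, so the order turned) and 77 at the limit, where 54 had a peak in both. Nascent medians were -1.36 (neither) and -1.28 (all genes) with a pseudocount of 0.1 CPM, and -0.71 (ActD alone), 0 (neither) and 0 (all genes) without the filter. Without mitochondrially encoded genes, added after seeing the data, they were -0.52 (both), -0.89 (ActD alone), -0.71 (DMSO alone), -1.08 (neither) and -1.002 (all genes). The cause of these changes was not tested. The lowest DMSO peak rests on 6.01 scaled tags, on the assumed scale, and the absence of lower peaks from that list does not show that they were absent from the cells. The part of depth in this was not tested.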
